A study of Mus musculus with 6 samples.

Results

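Prss35 and Prss23 are paralogous genes of the trypsin fold family, and their transcripts were followed here through 6 RNA-seq libraries of mouse bone marrow mesenchymal stem cells (BMSCs). They were taken as the rows of the count tables named Prss35 and Prss23, which are 2 of 25722 listed genes. Prss35 was picked because its level differed between RA and control in these same libraries (edgeR adjusted p = 0.0412; the nearest gene outside the threshold of 0.05, Pram1, had 0.0515), and Prss23 was added as its paralog. The difference between RA and control in both genes is therefore given as a description, with no test.

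The 3 control libraries came from wild-type C57BL/6 BMSCs given DMSO, the solvent, and the 3 RA libraries from the same kind of cells given all-trans retinoic acid (RA) at 1 μM for 48 h, as the labels have it. The study's methods give a lower dose and a shorter time. All cultures were kept in low-glucose DMEM with fetal bovine serum and a ROCK inhibitor at 5% oxygen, and the age of the mice was not given in the sources used here. The labels' protocol speaks of 2 biological replicates although each group has 3 libraries, so the spread between libraries may in part be technical. Total counts ran from 14737636 to 18511905 a library.

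The libraries fell into sets that the treatment does not explain. Control 2, RA 1 and RA 2 (set 1) and control 1, control 3 and RA 3 (set 2) had Pearson correlations of log2 CPM (counts scaled to the total of the library) of 0.962 to 0.991 within a set and 0.944 to 0.961 between sets, over the 13842 genes that passed the filter on low counts. No label gives a batch, and the difference between RA and control in each of the paralogs is also given inside a set. The label of mesenchymal cells was checked against marker genes. Col1a1, Pdgfrb and Prrx1 were present in every library, while the mesenchymal surface markers Thy1 and Nt5e reached at most 7 and 21 counts. The macrophage markers Adgre1 and Csf1r reached at least 4463 and 947 CPM in every library. In such bulk cultures fewer cells of a type and less RNA per cell cannot be told apart.

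Proteases of the trypsin fold cut proteins with a catalytic triad of histidine, aspartate and serine, and many are secreted into blood, gut or matrix. Prss23 and Prss35 are close relatives within the family, both made with a signal peptide and both described in the ovary around ovulation. Prss23 keeps the catalytic serine, whereas Prss35 carries threonine in its place and is regarded as a pseudoprotease. RA acts through RAR and RXR receptors, which bind pairs of a hexamer close to AGGTCA.

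Prss35 (ENSMUSG00000033491) lies on the plus strand at chr9:86743649-86758443 of GRCm38 (mm10), with 2 annotated transcripts whose exons merge into 2 blocks of 3444 bases. Prss23 (ENSMUSG00000039405) lies on the minus strand at chr7:89507783-89527187, with 8 transcripts whose exons merge into 6 blocks of 3767 bases. No word of 50 or of 25 bases was shared by the transcripts of the paralogs, and the longest run they had in common was 16 bases. Of the 50-base words of Prss35, 57 of 3436 (1.66%) also occur in another gene, and 0 of the 3845 words of Prss23 do.

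The promoter windows of both genes are shown because the treatment works through a DNA-binding receptor. Each holds the 250 bases before and the 50 bases after a RefSeq transcript start (GRCm38.p6), written 5′ to 3′ on the gene's strand. Capitals mark the half-sites that were searched for on either strand. These were AGGTCA as the base form, then GGGTCA as the first variant, AGTTCA as the second and GGTTCA as the third, and the letters TGACCT read as AGGTCA on the other strand. The first window is that of Prss35, the second is the Prss23 window with the most half-sites, and the third is at the start of the longest coding Prss23 transcript.
Prss35, chr9:86743383-86743682, plus strand: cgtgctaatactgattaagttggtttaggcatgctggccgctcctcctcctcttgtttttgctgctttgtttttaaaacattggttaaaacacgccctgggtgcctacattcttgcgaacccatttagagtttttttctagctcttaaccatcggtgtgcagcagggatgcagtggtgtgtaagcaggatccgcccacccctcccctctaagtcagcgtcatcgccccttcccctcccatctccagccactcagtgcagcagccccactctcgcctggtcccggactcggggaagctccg
Prss23, chr7:89518155-89518454, minus strand: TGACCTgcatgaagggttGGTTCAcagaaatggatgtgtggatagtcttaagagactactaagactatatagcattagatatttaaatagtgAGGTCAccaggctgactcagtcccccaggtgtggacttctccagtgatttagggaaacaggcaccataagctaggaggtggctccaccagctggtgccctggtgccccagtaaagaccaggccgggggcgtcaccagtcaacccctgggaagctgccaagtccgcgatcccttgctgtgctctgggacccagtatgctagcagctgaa
Prss23, chr7:89517537-89517836, minus strand: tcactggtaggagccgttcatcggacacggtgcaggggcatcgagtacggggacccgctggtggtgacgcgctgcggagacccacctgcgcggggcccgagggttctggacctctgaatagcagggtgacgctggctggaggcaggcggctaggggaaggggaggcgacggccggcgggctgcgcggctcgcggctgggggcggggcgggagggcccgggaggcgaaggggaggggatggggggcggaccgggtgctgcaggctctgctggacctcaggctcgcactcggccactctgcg

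The Prss35 window held 0 half-sites. Of the 7 RefSeq windows of Prss23, which overlap in part, 3 held at least 1 half-site. The printed one with 3 half-sites has AGGTCA on the minus strand at -250, GGTTCA at -232 and AGGTCA at -158, counted from the transcript start. Such letters are common: 43.7% of the 32851 windows of mouse genes held at least 1 of the 4 hexamers, and 16.3% held AGGTCA. A match is not a binding site, and the count tables do not show which start the Prss23 reads came from.

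Prss35, the pseudoprotease, was low in controls and several-fold higher in each RA library. The 3 control libraries held 54, 82 and 47 counts of Prss35, which is 3.78, 4.36 and 3.23 CPM after TMM scaling. The RA libraries held 578, 463 and 286 counts, or 32.1, 29.4 and 19.5 CPM. No RA library came near a control, and the lowest RA value was 4.47 times the highest control value. The mean went from 3.79 ± 0.565 to 27 ± 6.63 CPM (SD, n = 3 each), 7.12-fold. Counting error was small beside this: the Wilson 95% interval of the thinnest library, control 3, ran from 2.35 to 4.16 CPM before scaling. Intervals cover counting error only.

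The fitted log2 fold change of Prss35 was 2.83 (SE 0.25), number 29 from the top of the 13842 genes tested. Within set 1 the mean CPM of RA was 7.05 times that of control, and within set 2 it was 5.56 times. RA 3, the library of set 2, was the lowest of the RA libraries. In that fit 0.0361% of genes were called higher and 0.00722% lower in RA (adjusted p under 0.05 and at least 1.5-fold), and Prss35 was chosen from among the former. Its libraries did not overlap between the groups, as in 5.71% of genes with RA higher and 6.87% with RA lower, and nothing is read from this for a gene chosen on the same contrast. Per kilobase of exon, Prss35 stood at the 20.8th to 24.7th percentile of tested genes in controls and at the 53.7th to 65.5th in RA. In place among expressed genes it was thus low in controls and about the middle in RA.

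Prss23, the paralog with an intact catalytic serine, was abundant in both groups, and its groups overlapped. The control libraries held 755, 2271 and 904 counts of Prss23, or 52.9, 120.8 and 62.2 CPM. The RA libraries held 3925, 2591 and 1493 counts, or 218.2, 164.3 and 101.9 CPM. RA 3 lay below control 2, while the other RA libraries lay above every control. The mean went from 78.6 ± 36.8 to 161.4 ± 58.2 CPM (SD, n = 3 each), 2.05-fold.

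The log2 fold change of Prss23 was 1.04 (SE 0.39), number 337 from the top. The order of the libraries followed the sets as well as the treatment. The control of set 1 was 2.10 times the mean of the set 2 controls, and the RA libraries of set 1 were 1.88 times that of set 2, so the sets differed about as much as the groups. Within the sets RA was 1.58 times control in set 1 and 1.77 times control in set 2. The coefficient of variation was 46.8% in controls and 36.1% in RA, against 14.9% and 24.6% for Prss35.

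**Figure D1:**
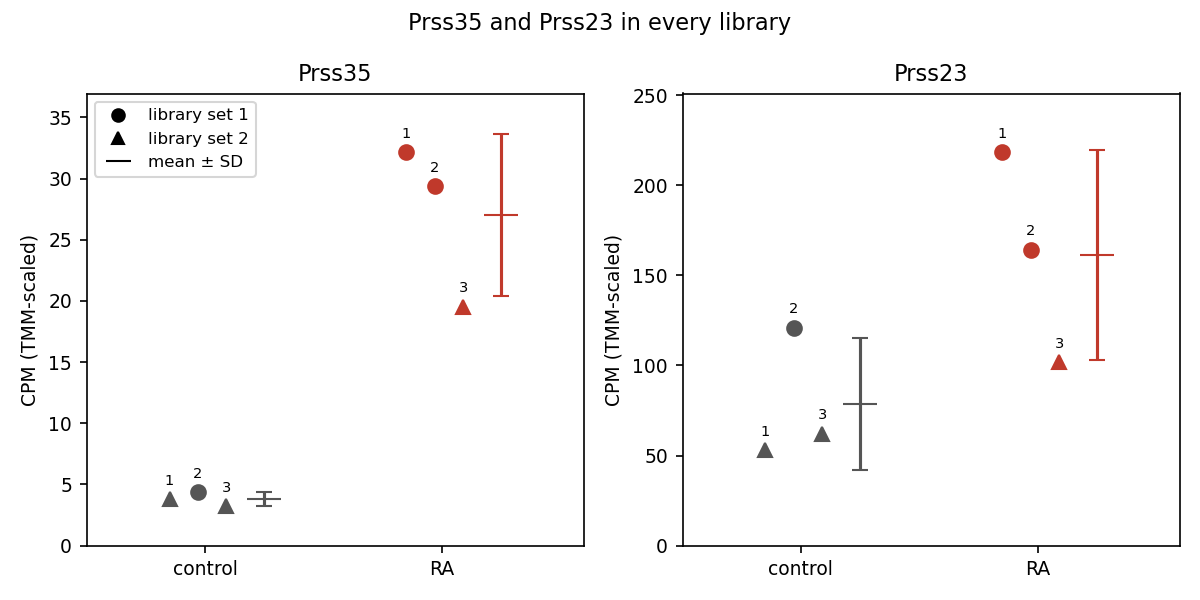
CPM of Prss35 and Prss23 in each of the 6 libraries, with the mean ± SD of each group; circles are set 1 and triangles set 2. The RA libraries of Prss35 sit between 19.5 and 32.1 CPM, above all controls, while for Prss23 RA 3 (101.9 CPM) sits below control 2 (120.8 CPM).

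Per kilobase of exon, Prss23 exceeded Prss35 in every library, and by less in RA. The ratio of Prss23 to Prss35 was 12.8, 25.3 and 17.6 in the controls and 6.21, 5.12 and 4.77 in RA. The groups did not overlap, with means of 18.6 ± 6.33 and 5.37 ± 0.750 (SD, n = 3 each). Prss35 was chosen for being higher in RA in these libraries, which favours a lower ratio in RA. The ratio is thus a description, and nothing is read from the separation. Prss35 made up 3.80% to 7.26% of the pair's level per kilobase in controls and 13.9% to 17.3% in RA. The ratio was lower in RA inside both sets, at 25.3 in control against 6.21 and 5.12 in RA in set 1, and at 12.8 and 17.6 against 4.77 in set 2. The RA ratios were close together although the Prss23 level itself differed by more than 2-fold among those libraries.

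A non-coding gene, Prss23os (ENSMUSG00000030623, chr7:89510007-89511873, plus strand), runs antisense to Prss23 and shares 864 of its 1592 exon bases (54.3%) with Prss23 exons. Whether counting used strand is not given in the sources used here, so reads from the shared bases cannot be told apart. Prss23os held 0, 12 and 6 counts in the controls and 34, 46 and 13 in RA. For the 0 in control 1 the Wilson 95% upper limit is 0.261 CPM before scaling. The counts of Prss23os are at most 1.78% as many as Prss23 had in the same library. If all of these counted reads belonged to Prss23, its level would move by less than its spread between libraries. The shared bases are 22.9% of the Prss23 exon bases. Reads there that were given to neither gene would not show in these counts, so their effect on the Prss23 level is not known.

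The summed mesenchymal, macrophage, osteoclast, endothelial and neutrophil markers overlapped between control and RA. The mesenchymal and osteoclast sums were higher in set 1, and the endothelial and neutrophil sums were lower there. The 23 mesenchymal genes summed to 5399 to 10932 CPM in controls and 3905 to 8335 CPM in RA, with 6450 to 10932 CPM in set 1 and 3905 to 5875 CPM in set 2. Inside each set the mesenchymal sum was lower in every RA library than in every control, with RA means 0.676 times control in set 1 and 0.693 times control in set 2. Abundant matrix genes weigh most in this sum (Fn1 reached 3281 CPM and Col1a1 1648 CPM), and single markers differed in direction. Log2 fold changes above 0 were those of Lepr (3.35), Pdgfra (0.83), Dcn (0.52), Pdgfrb (0.36), Cxcl12 (0.34), Twist1 (0.28), Acta2 (0.13) and Eng (0.06). Below 0 were Col6a1 (-0.95), Ly6a (-0.90), Fbn1 (-0.68), Col1a1 (-0.58), Col1a2 (-0.56) and Col3a1 (-0.41). Also below 0 were Fn1 (-0.21), Sparc (-0.18), Prrx1 (-0.16), Tagln (-0.12), Postn (-0.06) and Vcam1 (-0.05). None of these markers passed the edgeR adjusted threshold. The 17 macrophage genes summed to 22013 to 24210 CPM in controls and 21655 to 22786 CPM in RA. By set this sum was 21655 to 22847 CPM in set 1 and 22013 to 24210 CPM in set 2. Between the sets 12 of the 17 genes were lower and 3 higher in every set 1 library, and the share over all genes was not computed. The 8 osteoclast genes summed to 258 to 436 CPM in controls and 291 to 555 CPM in RA, and inside each set every RA library lay above every control. The 9 endothelial genes summed to 8.78 to 13.7 CPM in set 1 and 20.5 to 22.4 CPM in set 2, and the 5 listed neutrophil genes to 23.8 to 28.6 CPM and 33.8 to 36.3 CPM. Cd3d, Elane and Mpo were not among the listed genes. Prss23 was higher in the libraries with the higher mesenchymal sum of their group, as was Prss35 among the RA libraries, and the part of cell makeup in this was not tested.

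**Figure D2:**
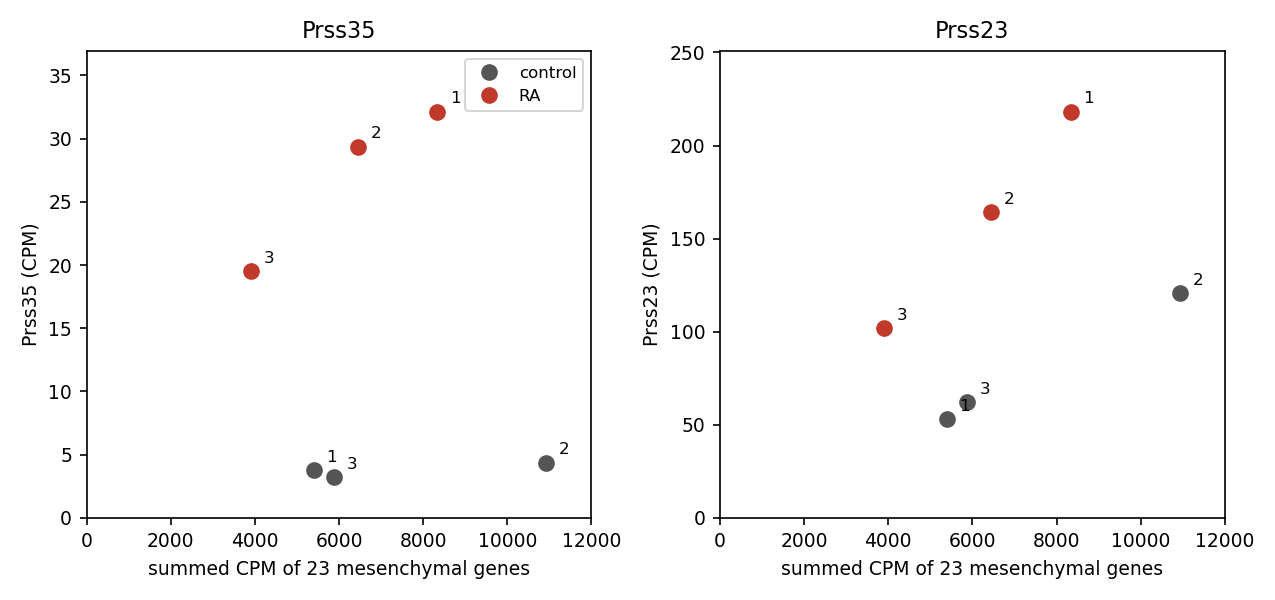
CPM of Prss35 (left) and Prss23 (right) against the summed CPM of 23 mesenchymal genes, 1 point per library, numbered by replicate. Within each group Prss23 was higher where the sum was higher, and so was Prss35 among the RA libraries. Control 2, with the highest sum of 10932 CPM, was the highest control for both, with 120.8 CPM of Prss23 and 4.36 CPM of Prss35.

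Among other trypsin fold genes the difference of Prss35 was not shared widely. Of 133 genes on the list, 72 were listed in the tables and 19 passed the filter. None of the 19 passed an edgeR adjusted p under 0.05, against 0.0433% of all genes called in either direction. At an unadjusted p under 0.05, 3 of 19 were higher in RA and 0 lower (15.8%), against 5.25% of all genes (2.89% higher and 2.36% lower). The groups did not overlap in 5 of 19 (26.3%), against 12.6% of all genes. Of these, 4 had RA higher (5.71% of all genes) and 1, Tysnd1, had RA lower (6.87% of all genes). The median log2 fold change was -0.04, against -0.02 over all genes tested.

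The genes of the list that differed by at least 1.5-fold without overlap were Htra3, Htra1 and Masp1, all higher in RA and all coding for secreted proteins. Over all genes 2.21% differed in this way with RA higher and 1.69% with RA lower. Htra3, a matrix protease that binds TGF-beta family ligands, had 9.60, 10.96 and 10.04 CPM in controls and 23.5, 15.1 and 22.8 CPM in RA (log2 fold change 1.00, SE 0.21, edgeR adjusted p = 0.342). Htra1, its paralog, had 11.8, 21.1 and 14.2 CPM in controls and 36.6, 29.8 and 23.8 CPM in RA (log2 fold change 0.93, SE 0.27, edgeR adjusted p = 0.660). Masp1, which starts the lectin pathway of complement, had 5.67, 8.19 and 5.02 CPM in controls and 17.2, 15.3 and 9.76 CPM in RA (log2 fold change 1.16, SE 0.29, edgeR adjusted p = 0.508). In each of these genes every RA library lay above every control, and the edgeR test did not call them. The calls varied with the test. For Htra3, Masp1 and Htra1 the adjusted p was 0.0061, 0.0468 and 0.137 with DESeq2, 0.0569, 0.0248 and 0.0479 in edgeR with a term for the library set, and 0.0323, 0.0807 and 0.196 with edgeR's likelihood ratio test.

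Compared per kilobase of exon, Prss23 was a leading trypsin fold gene of these cultures. Among the 21 genes of the family that passed the filter, both members included, Prss23 had a mean of 20.9 ± 9.77 CPM per kilobase in controls, beside 21.9 ± 1.52 for Tysnd1, a peroxisomal protease, and 19.1 ± 1.22 for Htra2, a mitochondrial one. These means did not differ beyond the spread of Prss23. By library it was 1st in control 2 (32.1) and 3rd, below both, in controls 1 and 3 (14.0 and 16.5). In RA it came 1st in all 3 libraries, with a mean of 42.9 ± 15.5, ahead of Tysnd1 (16.4 ± 4.25) and Htra2 (15.99 ± 3.97). By its mean Prss35 was 16th in controls (15th in control 2) with 1.10 ± 0.164 CPM per kilobase, next to Htra4 (1.22 ± 0.22) and Prss46 (0.861 ± 0.555), all within their spread. It was 6th in RA (5th in RA 2) with 7.84 ± 1.93, between Plau, the urokinase (8.87 ± 1.49), and Gzme (5.54 ± 1.53), and the SD ranges of each of these genes and Prss35 overlapped.

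**Figure D3:**
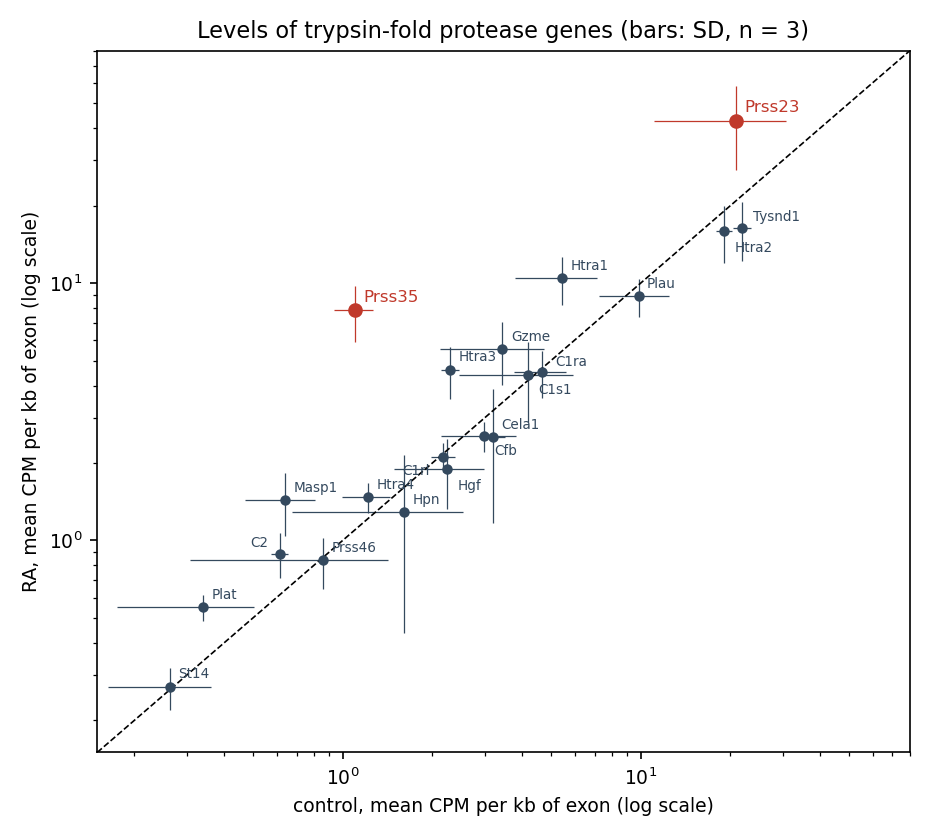
Mean level in CPM per kilobase of exon of the 21 trypsin fold genes that passed the filter, control against RA on log axes, with SD bars (n = 3). The dashed line marks equal levels. Prss23 went from 20.9 to 42.9 and Prss35 from 1.10 to 7.84, while the means of Tysnd1 (21.9 and 16.4) and Htra2 (19.1 and 15.99) lie somewhat below the line. Every RA library of Tysnd1 lay below every control.

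Genes of the serpin and other serine protease inhibitor families showed no common direction. Of 69 such genes on the list, 50 were in the tables and 19 passed the filter. None of the 19 passed the edgeR adjusted threshold, against 0.0433% of all genes. At an unadjusted p under 0.05, 2 were higher and 1 was lower (15.8%), against 5.25% of all genes (2.89% higher and 2.36% lower). The groups did not overlap in 4 (21.1%, against 12.6% of all genes), and the median log2 fold change was -0.05. Some of the 4 passed the filter only through the group where they were higher, which favours such a separation, so nothing is read from this share.

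The most abundant genes of this list per kilobase were Serpinh1, the collagen chaperone, Serpinb6a, an intracellular inhibitor, and Serpinf1, the secreted pigment epithelium-derived factor. Serpinh1 and Serpinf1 have the serpin fold but do not inhibit proteases. Their means were 76.5, 71.3 and 29.4 CPM per kilobase in controls and 66.9, 69.0 and 30.5 in RA. Serpinb1a, which blocks neutrophil proteases, held 11, 20 and 18 counts in controls and 8, 4 and 5 in RA (log2 fold change -1.53, SE 0.38, edgeR adjusted p = 0.468). Serpini1 held 7, 9 and 7 counts in controls and 13, 13 and 12 in RA (log2 fold change 0.70). Kazald1 held 14, 24 and 16 counts in controls and 17, 3 and 14 in RA (log2 fold change -0.68). In CPM the groups of all 3 genes did not overlap, on counts this low. Serpinb1a and Serpini1 passed the filter only through the group where they were higher.

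Known RA-response genes were higher in the RA libraries. Of 16 genes on a list of known retinoid targets, 10 passed the filter, 1 was called (0.0433% of all genes), and every RA library lay above every control in 6, against 5.71% of all genes tested. The called gene was Cyp26b1, the enzyme that breaks down RA, which was upregulated from 5.20 ± 0.670 to 106.8 ± 18.4 CPM (log2 fold change 4.35, SE 0.19, edgeR adjusted p = 0.00207). The list's median log2 fold change was 1.97, between the values of Prss23 and Prss35. Some genes of the list held few counts in controls and passed the filter only through the RA libraries. For those the filter itself favoured RA above control, in the count as in the median.

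The genes whose pattern over the 6 libraries was most like that of Prss35 included Cyp26b1. By Pearson correlation of log2 CPM with Prss35 over 6 libraries, the highest of 13841 genes were Sept6, a septin of the cytoskeleton (0.998), Cyp26b1 (0.995), Snap91, a clathrin assembly protein of neurons (0.990), Piezo2, a mechanosensitive channel (0.988), and Olfml3, a secreted olfactomedin-like protein (0.987). Their mean levels went from 3.49 to 8.28 CPM, from 5.20 to 106.8 CPM, from 0.437 to 3.20 CPM, from 4.59 to 19.7 CPM and from 34.0 to 61.5 CPM. The treatment difference is part of these correlations, and the points share their libraries.

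The genes most like Prss23 were others. They were Msx2, a homeobox factor (0.998), Rgs16, which ends G protein signals (0.996), Ngdn (0.995), Ppp4r3a, a phosphatase subunit (0.994), and Pls3, an actin-bundling plastin (0.992). Msx2 had 1.46 and 3.24 CPM and Rgs16 had 11.1 and 24.4 CPM in control and RA, while Ngdn had 17.4 and 19.8 CPM. The correlation of Prss35 with Prss23 was 0.828 over 6 libraries, which ranked Prss23 453rd among genes for Prss35 and Prss35 1407th for Prss23.

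**Figure D4:**
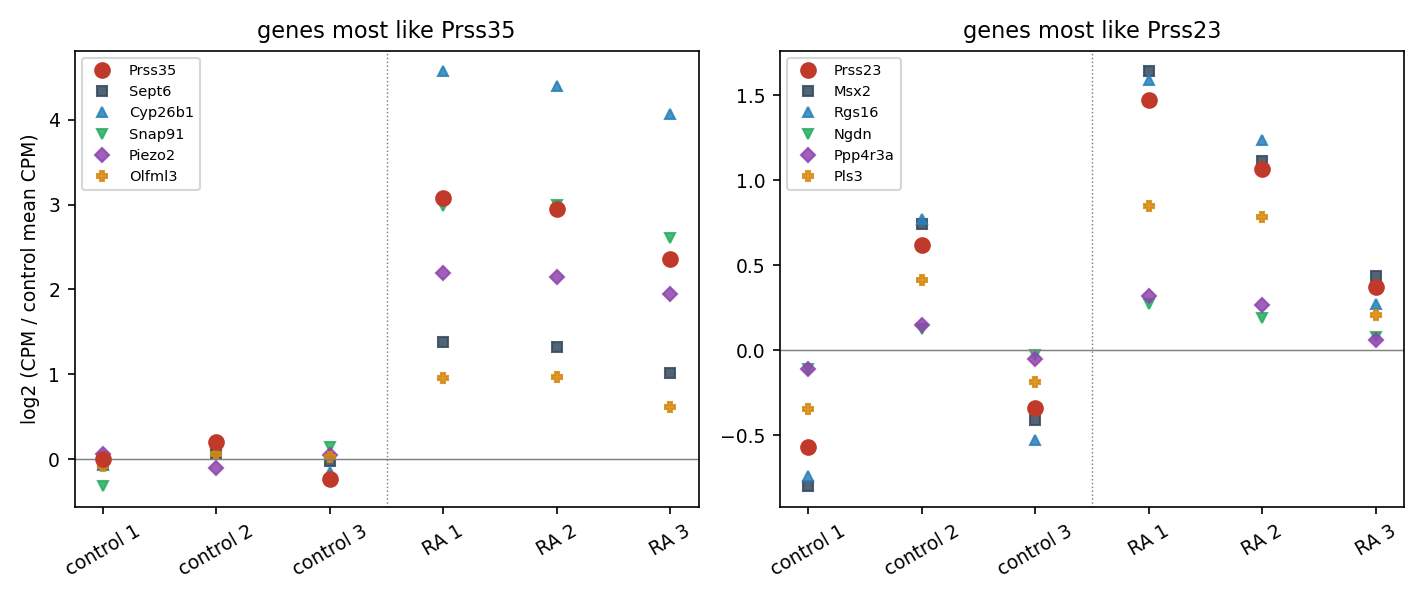
Levels of Prss35 and Prss23 and of the 5 genes most correlated with each, across the 6 libraries, as log2 of CPM over the gene's control mean. Genes like Prss35 separate RA from control, and genes like Prss23 put control 2 above RA 3.

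Next to Prss35 on the chromosome a single neighbour had a difference of like size. Snap91, 137 kb after the Prss35 start, held 5, 9 and 7 counts in controls and 62, 55 and 39 in RA (log2 fold change 2.85, SE 0.29, edgeR adjusted p = 0.0544). It narrowly missed the adjusted threshold. Me1, the cytosolic malic enzyme 47.7 kb before Prss35, had 67.8 ± 17.6 CPM in controls and 94.98 ± 27.5 CPM in RA (log2 fold change 0.49, SE 0.27). Pgm3, Rwdd2a and Cyb5r4 had log2 fold changes of 0.07, 0.32 and 0.22, and Ripply2 was not among the listed genes.

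The neighbours of Prss23 showed small differences. Rab38, Tmem135, Fzd4, Me3 and Hikeshi had log2 fold changes of -0.24, 0.05, 0.29, 0.26 and -0.11, and none passed the edgeR test. Ccdc81 was not among the listed genes. Me3, 105 kb from the Prss23 start, is the mitochondrial malic enzyme, so each of the paralogs lies beside a malic enzyme gene. Me3 held 7 to 18 counts a library.

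**Figure D5:**
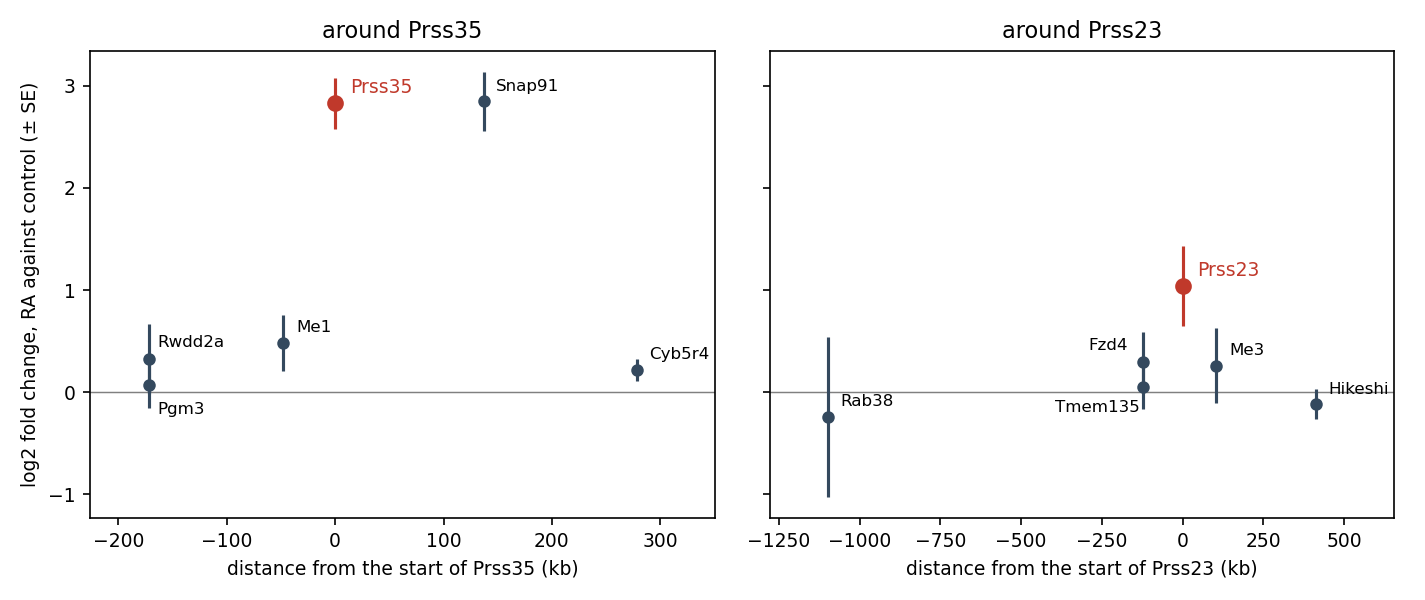
Log2 fold change with SE of Prss35, Prss23 and their nearest protein-coding genes, RA against control, by distance of the transcript start from that of the member. Snap91 (2.85) is level with Prss35 (2.83), and the listed neighbours of Prss23 lie between -0.24 and 0.29.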

How the data were processed

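RNA-seq gave 3 control and 3 RA libraries of BMSCs from C57BL/6 mice. The authors deposited raw counts of reads per gene, not normalized, 1 table per library. The submitters' processing notes name Bowtie2 2.2.3 and mm10. The counting program and its strand setting are not given in the sources used here. Groups and replicate numbers came from the labels, and Prss35, Prss23 and the gene lists were chosen with earlier results of these data known, as were the library sets.

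Of 25722 identifiers 25706 matched GENCODE M21 (GRCm38), and 24 names that had become dates were restored. Counts were fitted in R 4.3.3 with edgeR 4.0.16 (TMM scaling, filterByExpr, quasi-likelihood F test, 13842 genes), with DESeq2 1.42.0 as an alternative. A gene was called where the Benjamini-Hochberg adjusted p lay below 0.05 and the change reached 1.5-fold. SE was derived from the fold change and the F statistic, and log2 CPM used a prior count of 2. Levels between genes were compared per kilobase of merged exons.

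Named genes were the members; list genes that were called, that differed 1.5-fold without overlap, or that were among the 3 highest per length; called retinoid genes; the 5 most correlated genes; and the 3 nearest protein-coding genes on either side. The fit was tested on simulated data with 200 changed genes of 13842. With the spread seen between libraries, 82.5% of 4-fold and 0% of 2-fold changes were recovered. Promoters came from RefSeq on GRCm38.p6. Values of a few genes are not reported here.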

Additional observations from a re-analysis of the deposited data

How the results depend on the processing

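The log2 fold change of Prss35 was 2.83 and that of Prss23 1.04. Across every alternative run both stayed above 0, and the largest departure of Prss35 was 2.44 within set 2, which has 1 RA library. Leaving out 1 library gave 2.71 to 3.01 for Prss35 and 0.78 (without RA 1) to 1.503 (without control 2) for Prss23. With the library set as a covariate Prss23 had 0.74.

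The number of genes called depended strongly on the test: 6 in edgeR, 727 at an unadjusted p under 0.05, 20 with no filter, 136 with DESeq2, 213 with the library set as a covariate and 134 with the likelihood ratio test, and 0 to 6 without 1 library (0 without control 1, 2 without control 2, and 1 each without control 3, RA 1 or RA 2). Of the 19 trypsin fold genes 0 were called in edgeR (6 of all 13842 genes) and 3 at an unadjusted p under 0.05 (727 of all). There were 2 with DESeq2 (136 of all), 2 with the set as a covariate (213 of all) and 1 with the likelihood ratio test (134 of all), and 0 to 0 without 1 library. Of the 19 inhibitors 0 were called in edgeR, 3 at an unadjusted p under 0.05 (727 of all genes) and 2 with the set as a covariate (213 of all genes), among them Serpinb2 (log2 fold change -1.92, adjusted p = 0.0278), with 0 to 0 without 1 library. With the set as a covariate, 11 inhibitors and 4 trypsin fold genes had an unadjusted p under 0.05, against 2096 of all 13842 genes. The cause was not tested.

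A fit with a replicate block called 4 genes, and Prss35 and Prss23 had 2.81 and 1.06. Same-numbered libraries deviated from their group means with correlations of -0.51, 0.34 and 0.57, so the number was not taken as a pairing. A 2-fold change was below what the edgeR test recovers at this spread, so calls missed in the lists show no absence of a difference.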

Other observations

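The following ratio was chosen after the values were seen. Set against the summed CPM of the 23 mesenchymal genes, Prss23 no longer overlapped between the groups: it stood at 9.79, 11.05 and 10.6 CPM per 1000 CPM of mesenchymal genes in the controls and at 26.2, 25.5 and 26.1 in RA, a difference of 2.47-fold with coefficients of variation of 6.05% and 1.48%. The mesenchymal sum was itself lower in RA inside each set (0.676 and 0.693 times control), which raises these ratios above the CPM folds of 1.58 and 1.77 for Prss23 within the sets. Prss35 stood at 0.700, 0.399 and 0.550 in the controls and 3.85, 4.55 and 5.00 in RA, 8.13-fold. Against each of 20 single mesenchymal genes in turn, the RA ratios of Prss23 lay above all controls for 16 genes and those of Prss35 for 19. The exceptions for Prss23 were Pdgfra (1.14-fold), Lepr (0.31-fold), Cxcl12 (1.62-fold) and Dcn (1.43-fold), and for Prss35 Lepr (1.04-fold). The ratios share the same libraries, and the share of all genes that separate in this way was not computed. For genes chosen on this contrast nothing is read from these counts or from the lack of overlap. Lepr, Cxcl12 and Dcn were themselves higher in every RA library. Col6a1 and Ly6a were lower in every RA library, and against them the Prss23 ratio differed by 4.04-fold and 3.73-fold. Against the macrophage sum the Prss23 groups still overlapped (2.40, 5.29 and 2.57 against 10.1, 7.38 and 4.47 CPM per 1000 CPM).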
